A study of Mus musculus with 6 samples.

Results

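The Krüppel-like factor (KLF) family was examined in mouse embryonic stem cells through 8 of its genes, Klf2, Klf3, Klf4, Klf5, Klf6, Klf7, Klf9 and Klf10. They were picked as named genes with earlier results of these data known, and each matched 1 row of the deposited table of 42450 genes. Total RNA had been sequenced from E14tg2a.4, a male mouse embryonic stem cell line (WT, 3 libraries), and from line CG0630, a derivative of E14tg2a.4 with a gene-trap cassette in exon 1 of 1 Srrm2 allele (Srrm2+/-, 3 libraries). Srrm2 encodes a splicing factor of nuclear speckles. Both lines were grown with leukaemia inhibitory factor (LIF), the cytokine that maintains mouse stem cells. Routine culture medium held fetal calf serum, and cells were moved to serum-free medium before collection. No inhibitor or other agent is given for either group. The mutant is a single gene-trap line, and WT cells had been banked at later passages, so the clone, the passage and the Srrm2 dose cannot be told apart. The replicates are cells thawed from 3 independently frozen batches of each line.

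KLF proteins bind GC-rich and CACCC-type DNA through zinc fingers at their carboxyl end, and they differ in the amino-terminal part that recruits activators or repressors. In mouse embryonic stem cells Klf2, Klf4 and Klf5 overlap in function: each helps to hold the naive state, and Klf4 is a direct target of the LIF-STAT3 pathway. Klf6 and Klf10 are best known as genes that respond early to serum, growth factors and transforming growth factor beta (TGF-beta), Klf9 responds to glucocorticoid and thyroid hormone, Klf3 encodes a repressor that works through CtBP proteins, and Klf7 is known for its part in neuronal development.

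The starting regions of the 5 members whose RNA differed between the genotypes are shown because these genes moved in opposite directions. RefSeq promoter windows were at hand for 6 of the 8 members, and Klf5 and Klf10 were not matched. Each sequence gives the 250 bases before the RefSeq transcription start on build GRCm38.p6, 5′ to 3′ on the gene's strand. Capitals mark matches, on either strand, to the motifs searched, namely CACCC (a typical KLF site), GGGCGG (the GC box), CCAAT (the site of nuclear factor Y), TATAAA (the TATA box), TTCNNNGAA (a STAT-type site), the CArG box of SRF and the MEF2 site.
Klf2 (chr8:72318812-72319061, plus strand): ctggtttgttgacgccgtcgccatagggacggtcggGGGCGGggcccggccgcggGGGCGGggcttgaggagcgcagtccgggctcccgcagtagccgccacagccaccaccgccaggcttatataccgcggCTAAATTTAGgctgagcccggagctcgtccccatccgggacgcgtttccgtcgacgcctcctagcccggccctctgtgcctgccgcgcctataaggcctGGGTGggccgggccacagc
Klf4 (chr4:55532476-55532725, minus strand): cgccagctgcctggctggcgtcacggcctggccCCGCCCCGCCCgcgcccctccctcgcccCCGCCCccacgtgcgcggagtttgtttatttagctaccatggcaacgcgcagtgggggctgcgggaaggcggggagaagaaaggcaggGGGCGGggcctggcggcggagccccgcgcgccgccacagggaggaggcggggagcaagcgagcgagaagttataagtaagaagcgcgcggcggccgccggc
Klf9 (chr19:23140976-23141225, plus strand): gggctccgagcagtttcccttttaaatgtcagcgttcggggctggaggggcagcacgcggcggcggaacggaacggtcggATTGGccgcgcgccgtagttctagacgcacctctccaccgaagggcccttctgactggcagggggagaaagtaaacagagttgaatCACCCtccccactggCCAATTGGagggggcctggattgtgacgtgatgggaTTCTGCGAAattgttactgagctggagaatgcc
Klf6 (chr13:5861239-5861488, plus strand): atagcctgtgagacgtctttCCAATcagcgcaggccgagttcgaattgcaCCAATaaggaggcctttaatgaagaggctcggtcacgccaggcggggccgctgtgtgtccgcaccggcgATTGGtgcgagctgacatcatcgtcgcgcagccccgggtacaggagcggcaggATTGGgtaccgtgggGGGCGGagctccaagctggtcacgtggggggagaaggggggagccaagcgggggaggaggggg
Klf7 (chr1:64121390-64121639, minus strand): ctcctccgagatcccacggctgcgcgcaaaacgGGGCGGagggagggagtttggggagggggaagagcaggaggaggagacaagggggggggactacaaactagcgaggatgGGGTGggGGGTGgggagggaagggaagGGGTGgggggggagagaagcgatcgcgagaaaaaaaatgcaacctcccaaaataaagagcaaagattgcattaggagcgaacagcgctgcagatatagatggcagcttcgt

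Of the members that were lower in Srrm2+/- cells, Klf2 held 2 GC boxes, 1 CACCC word and 1 MEF2 match, the palindrome CTAAATTTAG that begins 118 bases before the start. Klf4 held 4 GC boxes and none of the other motifs. Klf9 held 3 CCAAT words, 1 CACCC word and 1 STAT-type word, TTCTGCGAA, at 33 bases before the start. Of the members that were higher, Klf6 held 4 CCAAT words and 1 GC box, and Klf7 held 3 CACCC words and 1 GC box. The Klf3 window, which is not shown, held 6 GC boxes and 5 CACCC words, with 1 overlap between different motifs. Matches to the same motif overlapped once in the Klf4 window (GC boxes) and once in the Klf9 window (CCAAT words). Among 32851 windows of the same length, CACCC occurred in 52%, GGGCGG in 32.7%, CCAAT in 33.8%, TATAAA in 12.4%, TTCNNNGAA in 7.02%, the MEF2 site in 2.92% and the CArG box in 1.47%. These shares were not matched for base composition, and the GC content of the member windows ranged from 59.2% (Klf7) to 78.4% (Klf3). No member window held a TATAAA or CArG match. The RefSeq and GENCODE starts of Klf7 lay 893 bases apart, against 133 bases or fewer for the other 5.

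Before the members were compared, the labels and the libraries were checked. Libraries held between 54151433 and 69933421 estimated counts after rounding. Levels are given as CPM, counts scaled by the effective library size, and as mean ± SD over the 3 libraries of a genotype (n = 3) wherever a ± stands. Srrm2 itself went from 95.7 ± 3.94 CPM in WT cells down to 59.3 ± 3.02 CPM in the mutant. The 8 embryonic stem cell markers summed to 5058 to 5241 CPM in WT libraries and to 4426 to 4537 CPM in Srrm2+/- libraries, and each of the 8 was detected in all 6, as the labelled cell type requires. Of these markers 5 were called lower and 1, Utf1, higher (median log2 change -0.24), and the call of Dppa5a among the lower ones was lost in 4 of the 6 fits with 1 library left out. Markers of primitive endoderm summed to 2.39 to 2.70 CPM in WT and 2.56 to 3.64 CPM in Srrm2+/-, with 1 of 5 tested genes called higher. Mesoderm markers summed to 1.49 to 2.27 and 5.10 to 5.67 CPM (2 of 4 higher), and fibroblast markers to 3.12 to 3.32 and 6.53 to 9.56 CPM (4 of 5 higher). Dcn was at 0 in WT and at most 0.0578 CPM in Srrm2+/-. Trophectoderm markers summed to 18.6 to 21.9 CPM in WT and 239.8 to 266.6 CPM in Srrm2+/- (3 of 5 higher), almost wholly through the keratins Krt8 and Krt18. The call of Eomes was lost in 5 of the 6 fits with 1 library left out, with DESeq2, with both other filters and with the replicate block, and Cdx2, which defines that lineage, was at 0 in every WT library and at most 0.276 CPM in Srrm2+/-. Neural markers summed to 88.6 to 91.8 and 130.8 to 138.0 CPM (1 of 4 higher, 2 lower). The rise of this sum was that of Nes, from 13.2 ± 1.73 CPM in WT to 83.6 ± 4.85 CPM in Srrm2+/-. Tubb3 and Pax6 were called lower, and Neurog2 was at 0 in WT and at most 0.0162 CPM in Srrm2+/-. Endothelial markers summed to 98.3 to 101.8 and 71.0 to 76.9 CPM (1 of 4 higher, 3 lower), mostly Pecam1. Cdh5 was at 0 in WT and at most 0.0162 CPM in Srrm2+/-. The part of these other cell markers in the results that follow was not tested. In bulk RNA, fewer cells that express a gene and less RNA per cell cannot be told apart.

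All 8 members passed the filter on low counts. At an adjusted p under 0.05 in edgeR's quasi-likelihood test, 2 members were higher in Srrm2+/- cells (Klf6 and Klf7), 3 were lower (Klf2, Klf4 and Klf9) and 3 did not pass (Klf3, Klf5 and Klf10). Over all 18905 genes tested 25.3% were called, 13.6% as higher and 11.7% as lower. The members had a median log2 change of -0.052, against -0.0025 over all genes tested. The genotypes did not overlap in CPM for 6 of the 8 members, 3 of them higher and 3 lower. The same held for 41.4% of all genes tested, with 21.4% higher and 20% lower. Klf6 and Klf7 also passed an added limit of 1 on the absolute log2 change, as did 6.1% of all genes tested.

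**Figure D1:**
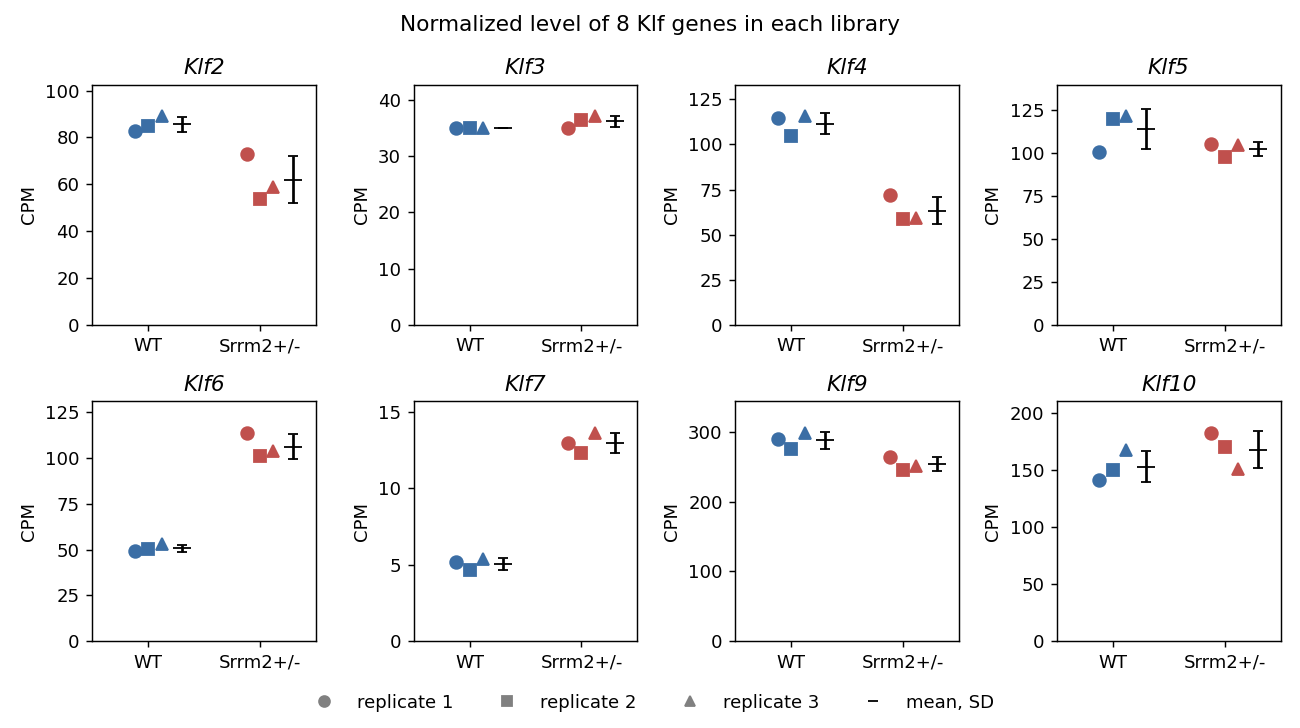
Normalized level of each of the 8 Klf genes (y axis, CPM, from 0) in WT (blue) and Srrm2+/- (red) libraries. Marker shapes give the replicate number, and black bars give the mean and SD of 3 libraries. Klf2, Klf4 and Klf9 sit lower and Klf6 and Klf7 higher in every Srrm2+/- library, while Klf5 and Klf10 overlap.

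Among the naive-state members the largest fall was that of Klf4 (ENSMUSG00000003032, chromosome 4, 55527143 to 55532466, minus strand), also known as one of the reprogramming factors. The WT libraries stood at 114, 105 and 116 CPM, those of Srrm2+/- at 71.7, 58.4 and 59.2 CPM. Every mutant library lay far below every WT library, and replicate 1 was the highest of the mutant group. The means were 112 ± 6.01 and 63.1 ± 7.49 CPM, so Srrm2+/- cells held 56.5% of the WT level. On the log2 scale this was a change of -0.82 with SE 0.08 and an adjusted p of 0.000126 in edgeR.

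Klf2 (ENSMUSG00000055148, chromosome 8, 72319033 to 72321656, plus strand), which overlaps in function with Klf4 in stem cells, fell too. It was measured at 82.9, 84.9 and 89.0 CPM in the WT libraries, against 73.0, 53.8 and 59.0 CPM in the mutant ones. The groups did not overlap, but replicate 1 of Srrm2+/- stood closer to WT than the other two did. The mean went from 85.6 ± 3.13 to 61.9 ± 9.93 CPM, or 72.3% of WT, a log2 change of -0.47 with SE 0.10 and an adjusted p of 0.00762 in edgeR. The call held without each library in turn, between -0.60 without Srrm2+/- replicate 1 and -0.37 without Srrm2+/- replicate 2.

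Klf5 (ENSMUSG00000005148, chromosome 14, 99298691 to 99315036, plus strand), which is also needed in the blastocyst, did not pass the threshold. Its WT levels were 101, 119.8 and 122 CPM, next to 105, 97.9 and 105 CPM in Srrm2+/-. WT replicate 1 lay within the mutant range, and the other WT libraries lay above it. The estimate was a log2 change of -0.15 with SE 0.07, a 95% confidence interval from -0.31 to 0.0086 and an adjusted p of 0.159 in edgeR. That outcome rested on 1 library, since without WT replicate 1 the log2 change was -0.23 and Klf5 was called lower (adjusted p 0.01 in edgeR).

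Because a ratio of genes within a library does not depend on scaling, the 3 pairs among Klf2, Klf4 and Klf5 were compared as log2 ratios of counts (pseudocount 0.5). The ratio of Klf4 to Klf2 was 0.38 ± 0.08 in WT but 0.033 ± 0.076 in Srrm2+/-, a difference of -0.35. Klf5 to Klf4 went from 0.027 ± 0.19 to 0.71 ± 0.14, a difference of 0.68, and Klf5 to Klf2 from 0.41 ± 0.11 to 0.74 ± 0.18, a difference of 0.33. For all 3 ratios the genotypes did not overlap. The two-sided exact permutation p was 0.1 for each, also after Benjamini-Hochberg adjustment over the 3 pairs, which is the smallest that 3 against 3 libraries can give. Klf5 thus made up more of the counts of this trio in every Srrm2+/- library, and Klf4 less. Summed, the trio stood at 311 ± 14.2 CPM in WT and at 228 ± 20.5 CPM in the mutant, or 73.1% of WT (two-sided exact permutation p 0.1).

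Of the signal-responsive members, Klf6 (ENSMUSG00000000078, chromosome 13, 5861482 to 5870394, plus strand) rose 2.09-fold. It was at 49.0, 50.2 and 52.9 CPM in the WT libraries, whereas the mutant libraries held 114, 101 and 104 CPM. The genotypes were widely apart, with little spread inside either. The means of 50.7 ± 1.96 and 106 ± 6.82 CPM corresponded to a log2 change of 1.06 with SE 0.05 and an adjusted p of 3.45e-06 in edgeR. Among the 18905 genes its rise ranked 917, counted from the largest.

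Klf10 (ENSMUSG00000037465, chromosome 15, 38291463 to 38300706, minus strand), also named TGF-beta inducible early gene, did not pass the threshold. Its levels were 141, 150.0 and 168 CPM in WT libraries, next to 183, 170.5 and 151 CPM in mutant libraries. The groups overlapped, and the distance between their means of 153 ± 13.4 and 168 ± 16.2 CPM was close to the spread inside each. The estimate was a log2 change of 0.13 with SE 0.08, a 95% confidence interval from -0.048 to 0.32 and an adjusted p of 0.272 in edgeR.

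Klf9 (ENSMUSG00000033863, chromosome 19, 23141226 to 23168134, plus strand), the hormone-responsive member and the one with the highest CPM, stood at 289.7, 275 and 299 CPM in WT libraries but at 264, 245 and 252 CPM in mutant libraries. The groups lay next to each other without overlap. Its mean of 288 ± 11.8 CPM went to 254 ± 9.96 CPM, a log2 change of -0.18 with SE 0.05 and an adjusted p of 0.0201 in edgeR. Of the 5 calls this was the one with the highest adjusted p. It was lost without WT replicate 1, WT replicate 3, Srrm2+/- replicate 2 or Srrm2+/- replicate 3, at adjusted p of 0.0526, 0.0746, 0.0802 and 0.0676 in edgeR, while the log2 change stayed between -0.21 and -0.15.

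The largest change among the members was that of Klf7 (ENSMUSG00000025959, chromosome 1, 64029447 to 64122282, minus strand), the member known from neurons and the one with the lowest CPM. It was at 5.17, 4.65 and 5.36 CPM in WT libraries, whereas the mutant libraries held 13.0, 12.3 and 13.6 CPM. The genotypes did not overlap, and each was tight. The means of 5.06 ± 0.365 and 13.0 ± 0.675 CPM amounted to a 2.56-fold rise, or a log2 change of 1.36 with SE 0.09 and an adjusted p of 1.09e-05 in edgeR. Of the genes annotated across Klf7, Gm13748, on the opposite strand, reached at most 0.0578 CPM, and Mir6899 was at 0. Of the 31-base words in Klf7 transcripts, 38.7% also occur in transcripts of other genes, nearly all in Gm26649. These words are those of GENCODE M21, while the authors counted against GENCODE M24. Gm26649, an overlapping long non-coding gene on the opposite strand, has no row in the deposited table. How the authors' counting treated strand is not given in the sources used, so reads of the pair might not be told apart.

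Klf3 (ENSMUSG00000029178, chromosome 5, 64803388 to 64832901, plus strand), the repressor, was at 35.0 CPM in each WT library and at 35.0, 36.4 and 37.1 CPM in the mutant libraries. The lowest mutant library exceeded the highest WT library by less than the printed precision. The estimate was a log2 change of 0.047 with SE 0.044, a 95% confidence interval from -0.052 to 0.15 and an adjusted p of 0.486 in edgeR. Gm20033, on the opposite strand of Klf3, was at most 0.793 CPM. For the members other than Klf7, 4.53% or fewer of the 31-base words occur in transcripts of other genes, and 0 words were shared between members.

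In the summed level the rises offset part of the falls. The 8 members together stood at 843 ± 37.3 CPM in WT and at 804 ± 47.3 CPM in the mutant, or 95.4% of WT, and the groups overlapped (two-sided exact permutation p 0.3).

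To compare levels between members, CPM were divided by the length of all annotated exons of a gene (CPM per kb). In WT the order of these levels was Klf9 (59.8 ± 2.46), Klf2 (46.4 ± 1.69), Klf4 (36.6 ± 1.97), Klf10 (36.6 ± 3.21), Klf5 (21.9 ± 2.23), Klf6 (11.5 ± 0.445), Klf3 (3.11 ± 0.00136) and Klf7 (0.622 ± 0.0449). Klf4 and Klf10 did not differ beyond their spread, and all other neighbours in this order were separate in every library. In Srrm2+/- the order was Klf9 (52.7 ± 2.07), Klf10 (40.2 ± 3.87), Klf2 (33.5 ± 5.37), Klf6 (24.1 ± 1.55), Klf4 (20.7 ± 2.46), Klf5 (19.7 ± 0.794), Klf3 (3.22 ± 0.0941) and Klf7 (1.60 ± 0.083). There the libraries of Klf10 and Klf2, of Klf6 and Klf4, and of Klf4 and Klf5 overlapped. Klf6 lay below Klf4 and Klf5 in each WT library, and in Srrm2+/- it lay above Klf5 and overlapped Klf4. The order depends on the length used. With the mean length of annotated coding transcripts, an alternative chosen after seeing the data, Klf10 came first in both genotypes, at 96.6 CPM per kb in WT and 106 in Srrm2+/-. Klf4 then had rank 2 in WT and rank 3 in Srrm2+/-, the mean of Klf6 stayed below that of Klf5, and Klf7 was last again.

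**Figure D2:**
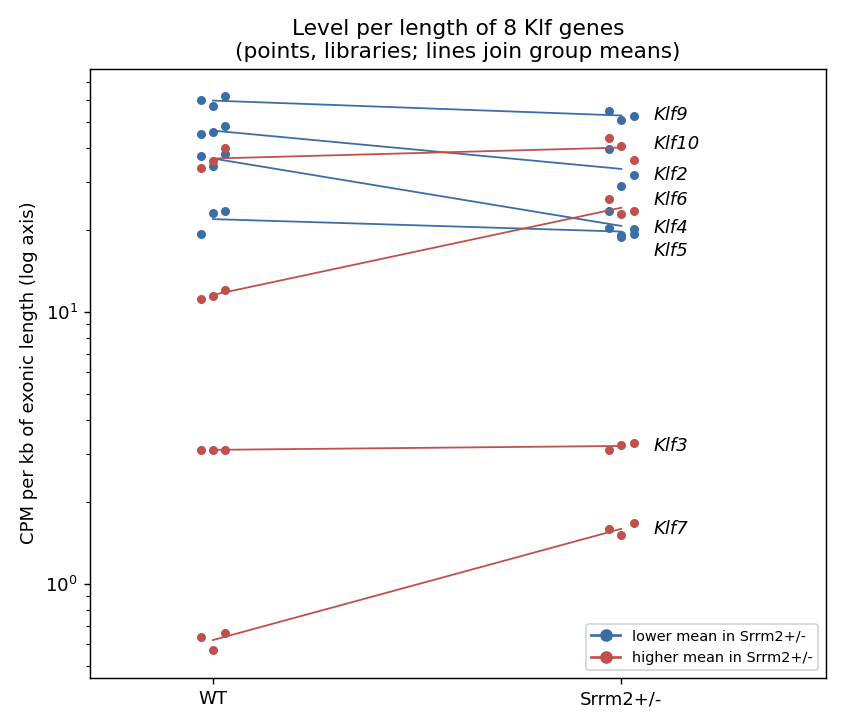
Level per length of the 8 Klf genes (y axis, CPM per kb of exonic length, log axis) in WT and Srrm2+/- libraries. Points are libraries and lines join the means of 3 libraries. The line of Klf6 rises to the levels of Klf4 and Klf5, and Klf7 stays lowest at 0.622 in WT and 1.60 in Srrm2+/-.

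The remaining KLF genes and the related SP factors, which bind the same kinds of GC-rich sites, were compared next. Of 19 genes listed, 18 had a row in the table (Klf18 had none) and 14 passed the filter. Of these, 3 were called higher and 3 lower, with a median log2 change of -0.033. Over all genes tested 13.6% were called higher and 11.7% lower, the shares to set beside this and the other list counts. Klf8, a CtBP-binding repressor like Klf3, fell to 20.4 ± 0.883 CPM from 31.6 ± 1.00 CPM (log2 change -0.63, SE 0.053, adjusted p 5.13e-05 in edgeR). Sp5, a target of Wnt signalling, rose to 2.73 ± 0.346 CPM from 1.56 ± 0.101 CPM (log2 change 0.81, SE 0.16, adjusted p 0.0052 in edgeR). Sp6 (0.44, SE 0.093) and Sp8 (1.18, SE 0.24) were called higher at WT means of 4.84 and 0.567 CPM. The widely expressed factor Sp1 did not pass, with 281 ± 10.6 CPM in WT next to 279.7 ± 3.60 CPM, whereas Sp3 (-0.16, SE 0.039) and Sp2 (-0.34, SE 0.081) were called lower. Without Srrm2+/- replicate 3 the calls of both were lost, leaving 1 gene called lower, and that of Sp2 was also lost without WT replicate 2. DESeq2 called 5 lower. Klf14, Klf17, Sp7 and Sp9 did not pass the filter, each under 1 CPM in every library.

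**Figure D3:**
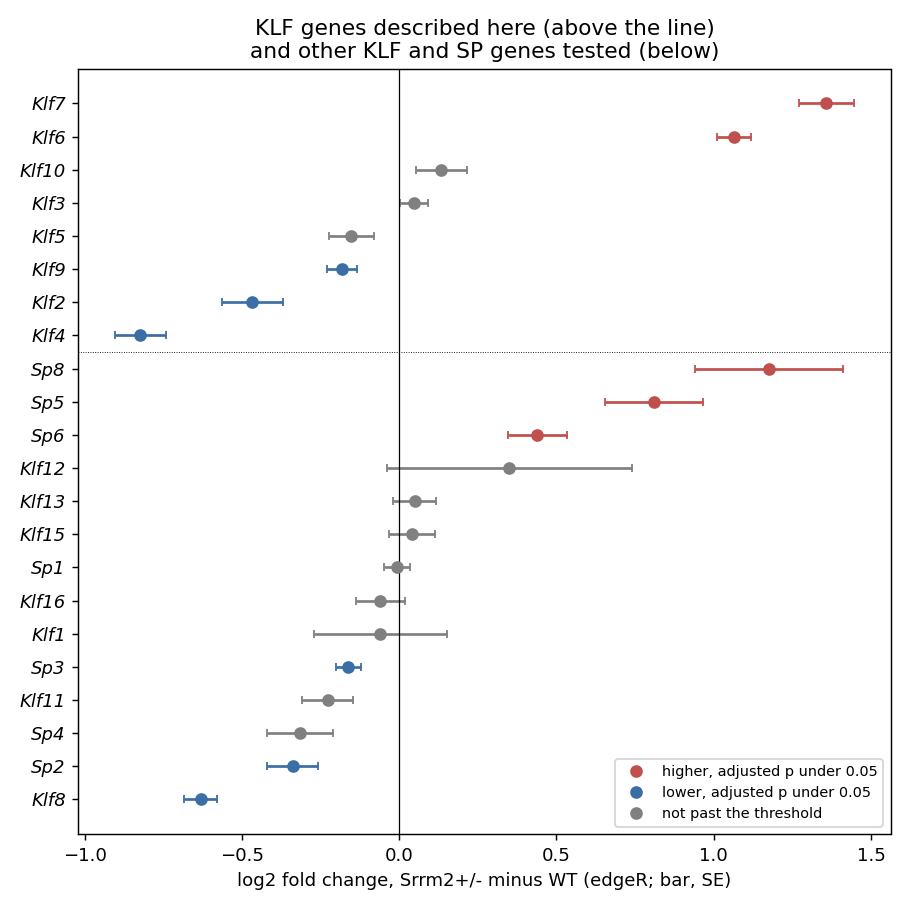
Log2 fold change (x axis, Srrm2+/- minus WT, edgeR; bars, SE) of the 8 Klf genes (above the dotted line) and of the 14 other KLF and SP genes tested (below it). Red and blue mark genes called higher and lower at an adjusted p under 0.05, and grey those not past it. The members span -0.82 for Klf4 to 1.36 for Klf7.

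Transcription factors and regulators that work beside KLF2, KLF4 and KLF5 in the naive network were mostly lower. Of 13 genes, 10 were called lower and the other 3 did not pass (median log2 change -0.38). The list was drawn up with earlier results of these libraries known, so its count is not independent evidence. The largest falls were those of Prdm14 (-1.02, SE 0.076), Tfcp2l1 (-0.84, SE 0.043), Tbx3 (-0.81, SE 0.071) and Tcl1 (-0.80, SE 0.036). Nanog went to 292 ± 11.0 CPM from 482 ± 15.3 CPM (log2 change -0.72, SE 0.044, adjusted p 8.6e-06 in edgeR). Not past the threshold were Pou5f1, which encodes OCT4 (-0.040, SE 0.037), Sall4 (-0.079, SE 0.061) and Mycn (0.12, SE 0.060).

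Among the lists of genes upstream of the KLF factors, only that of the LIF-STAT3 pathway held calls in both directions. In the LIF-STAT3 pathway, which drives Klf4, 3 of 7 genes were called higher and 2 lower (median -0.0065). The genes of both receptor subunits fell, Lifr to 106 ± 2.63 CPM from 132 ± 2.96 CPM (log2 change -0.33, SE 0.038, adjusted p 0.000358 in edgeR) and Il6st to 113 ± 3.78 CPM from 146 ± 6.14 CPM (log2 change -0.37, SE 0.045, adjusted p 0.000456 in edgeR). The kinase genes Jak2 (0.84, SE 0.16) and Jak1 (0.26, SE 0.044) were called higher, as was the ligand gene Lif (0.52, SE 0.13), the last in only 2 of the 6 fits with 1 library left out. Stat3 (-0.049, SE 0.042) and its feedback target Socs3 (-0.0065, SE 0.040) did not pass.

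The MEK5-ERK5-MEF2 pathway is known to induce Klf2 and Klf4 in endothelium. Here 3 of its 6 tested genes were called higher and the other 3 did not pass (median 0.12). Mef2d rose to 7.06 ± 0.899 CPM from 4.62 ± 0.407 CPM (log2 change 0.61, SE 0.12, adjusted p 0.00648 in edgeR). Klf2, whose promoter window holds the MEF2 match printed above, fell, and a link between these changes was not tested. The calls of Mef2a (0.24, SE 0.075) and Map3k3 (0.15, SE 0.046) were both lost with DESeq2 and without WT replicate 1, Srrm2+/- replicate 2 or Srrm2+/- replicate 3, which left 1 gene called. Of the 6 fits with 1 library left out, Mef2a was called in 2 and Map3k3 in 1. The call of Mef2a was also lost with limma voom, and that of Map3k3 with the replicate block. Mapk7, which encodes ERK5, did not pass (0.078, SE 0.068). Mef2c, which was not tested, was at 0 in each WT library and at most 0.014 CPM in Srrm2+/-.

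Serum response factor (SRF) and its partners control immediate early genes. Srf rose to 42.1 ± 2.40 CPM from 21.3 ± 0.841 CPM (log2 change 0.99, SE 0.058, adjusted p 7.09e-06 in edgeR), and Elk3, which encodes a ternary complex factor, rose as well (0.89, SE 0.13). The other 4 genes, Elk1, Elk4, Mrtfa and Mrtfb, did not pass (median of all 6, 0.019). Of 8 genes of the TGF-beta pathway and the glucocorticoid receptor, which act on Klf10 and Klf9, 4 were called higher and the other 4 did not pass (median 0.15). The ligand gene Tgfb2 rose to 4.96 ± 0.430 CPM from 0.612 ± 0.0413 CPM (log2 change 3.02, SE 0.15, adjusted p 2.9e-06 in edgeR) and the receptor gene Tgfbr2 to 2.55 ± 0.140 CPM from 0.699 ± 0.224 CPM (log2 change 1.87, SE 0.23, adjusted p 0.000533 in edgeR). Smad3 (0.43, SE 0.10) and Nr3c1, the glucocorticoid receptor gene (0.24, SE 0.050), were called higher too, the call of Smad3 being lost without Srrm2+/- replicate 2 or 3.

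**Figure D4:**
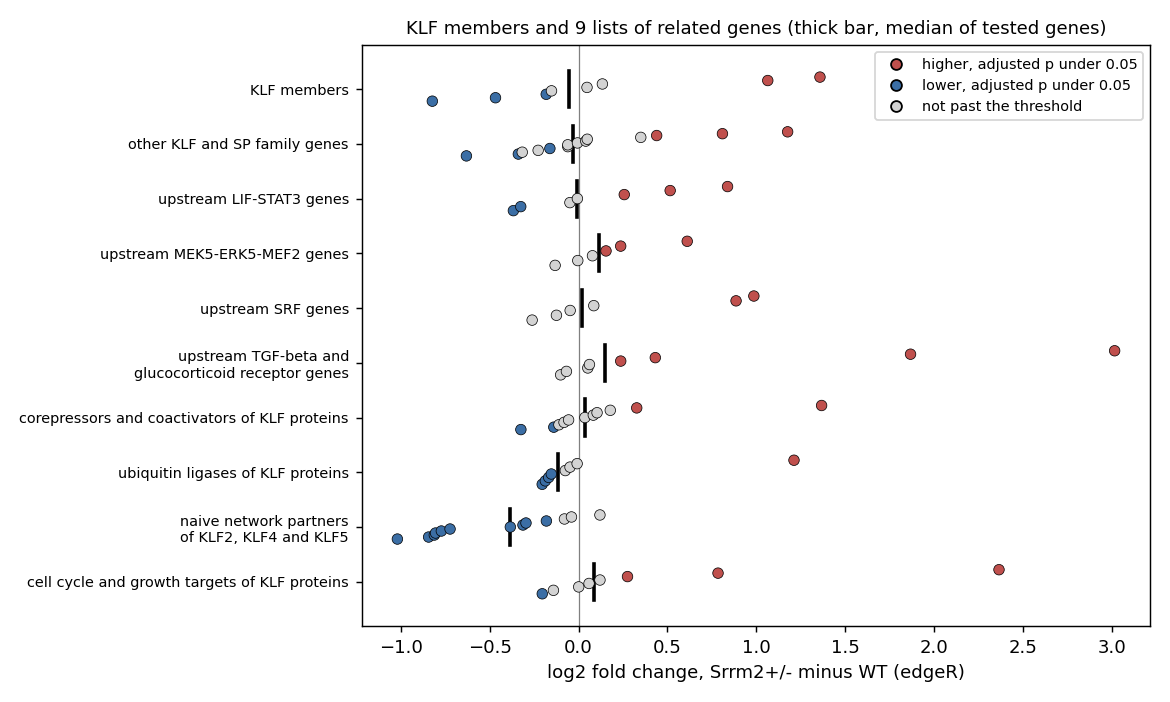
Log2 fold change (x axis, Srrm2+/- minus WT, edgeR) of each tested gene in the KLF members and 9 lists of related genes. Each point is a gene, coloured by its call, and thick bars are the medians of the tested genes in a list. The median of the naive network partners lies lowest, at -0.38, and that of the KLF members at -0.052.

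Of 11 genes for corepressors and coactivators that KLF proteins recruit, 2 were called higher and 2 lower (median 0.036). Ctbp2, which encodes a corepressor of KLF3 and KLF8, rose to 343 ± 15.5 CPM from 273 ± 16.1 CPM (log2 change 0.33, SE 0.054, adjusted p 0.00234 in edgeR), and Fhl3, which encodes a LIM-domain partner of KLF3, rose as well (1.37, SE 0.14). The acetyltransferase gene Kat2b was called lower (-0.32, SE 0.038), as was Hdac2 (-0.14, SE 0.037), the latter in only 1 of the 6 fits with 1 library left out. Of 8 genes for ubiquitin ligases that act on KLF proteins, 4 were called lower and 1 higher (median -0.11). The 4 lower ones were Siah1a (-0.20, SE 0.052), Vhl (-0.19, SE 0.055), Wwp1 (-0.17, SE 0.049) and Fbxo22 (-0.15, SE 0.040). Each of these calls was lost without WT replicate 1 and without Srrm2+/- replicate 2, and 1 to 2 were left without WT replicate 2, Srrm2+/- replicate 1 or Srrm2+/- replicate 3. Of the 6 fits with 1 library left out, Wwp1 was called in 0, Vhl in 1, Fbxo22 in 2 and Siah1a in 4. The call of Vhl was also lost with DESeq2, with the filter of at least 1 count and with the replicate block. Fbxo32 was called higher (1.21, SE 0.22) at a WT mean of 0.605 CPM.

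Of 8 cell cycle and growth genes that KLF proteins are known to regulate, 3 were called higher and 1 lower (median 0.09). Cdkn1a, the CDK inhibitor gene that KLF4 and KLF6 activate, did not pass, with 6.33 ± 0.468 CPM in WT next to 6.60 ± 0.743 CPM (log2 change 0.059, SE 0.11, adjusted p 0.756 in edgeR). The CDK inhibitor genes Cdkn2b (2.37, SE 0.28) and Cdkn1c (0.78, SE 0.10) and the cyclin gene Ccnd1 (0.28, SE 0.046) were called higher. Smad7, which encodes a brake on TGF-beta signalling, was called lower (-0.20, SE 0.059), a call kept in 1 of the 6 fits with 1 library left out.

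The genes whose pattern across the 6 libraries was most like that of Klf4 were Tdrp, Pgc and Tfcp2l1, at root mean square differences of 0.064, 0.07 and 0.073 in centred log2 CPM, among 11960 genes whose mean log2 CPM was 1 or more. For Klf2 they were Reep6, Gm5616 and Gm14226 (0.044, 0.048 and 0.05), and for Klf5 Tm9sf4, Dxo and Rnf121 (0.024, 0.024 and 0.027). These distances are a description of 6 libraries that share 2 genotypes.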

How the data were processed

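Total RNA libraries (stranded kit, paired ends) came from 3 WT and 3 Srrm2+/- cultures, grouped and numbered by the sample titles. Per the study's methods, the authors ran Kallisto 0.46.1 against the mouse transcriptome of GENCODE M24 (GRCm38). They deposited 1 estimated count for each gene and library, without normalization. The sources used here do not give the strand setting. Reads that fit several transcripts are split by estimate, so overlapping genes can exchange counts.

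Estimated counts were rounded. Symbols and coordinates (counted from 1) came from GENCODE M21 on the same build, which matched 42156 identifiers. Genes past filterByExpr (minimum count 10, minimum total 15) were tested in edgeR 4.0.16 (TMM, glmQLFit, glmQLFTest, two-sided, genotype as the sole term), with Benjamini-Hochberg adjustment over all 18905 tested genes and calls at an adjusted p under 0.05. The SE is the log2 fold change over the square root of F, and confidence intervals use the test's degrees of freedom. CPM used TMM-scaled library sizes. Promoters are RefSeq's. The test was run on simulated counts. False calls were on average near the nominal share when dispersions followed the fitted trend. They were above it for every seed when each gene kept its own estimated dispersion, so adjusted p values near the threshold may be too small. Far fewer genes were changed in the simulation than were called in these data, so its share of false calls need not hold here.

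The members and all 16 lists were chosen with earlier results of these data known. Named genes are the members, Srrm2, list genes (called genes with the largest changes, up to 4 per direction, and those bearing on a member) and the 3 nearest patterns of Klf2, Klf4 and Klf5. Alternatives were RLE and upper quartile scaling, DESeq2 1.42.0, limma voom 3.58.1, filters of at least 1 count over all libraries or 1 CPM in every library of a group, a replicate block, an added limit on fold change, a pseudocount of 5 for ratios and leaving out each library. Splicing was not analysed.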

Additional observations from a re-analysis of the deposited data

How the results depend on the processing

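Klf2, Klf4, Klf6, Klf7 and Srrm2 kept their direction and their call under all 13 alternatives run for each, and Klf3 and Klf10 stayed below the threshold under all 13. Without each library in turn, the log2 fold change of Klf5 ranged from -0.23 to -0.10, with a call only without WT replicate 1, and that of Klf9 from -0.21 to -0.15, with 4 of 6 calls lost. Fewer samples entered those fits. Under the other scalings, filters and tools both kept their side of the threshold. When a limit of 1 on the absolute log2 change was added, 2 members were called higher and 0 lower, since the largest fall, that of Klf4, was -0.82. Of all genes tested, 813 were then higher and 340 lower. The ratios among Klf2, Klf4 and Klf5 kept their direction with a pseudocount of 5 and without each library, where the smallest p is 0.2. With DESeq2, 5 other KLF and SP genes were called lower and 1 gene of the MEK5-ERK5-MEF2 list higher.

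Replicates of the same number showed no shared deviation from their group means over all genes tested (r across genes of -0.028, -0.034 and -0.03). The number was therefore not used as a pairing in the main fit. A correlation over all genes cannot exclude a batch that touched only some of them. In a fit with a replicate block, 2 members were called higher and 3 lower, and 2281 genes of all were higher and 1885 lower. The low genes Klf14, Klf17, Sp7 and Sp9 were not tested, so whether they changed is not known.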

Other observations

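WT replicate 3 held the highest WT level of 7 of the 8 members, all but Klf3, and Srrm2+/- replicate 1 held the highest Srrm2+/- level of 6, all but Klf3 and Klf7. Srrm2+/- replicate 2 held the lowest level of 6 of the 8. This order was noticed after the values were seen and was not tested. The direction of every called member was the same without WT replicate 3 and without Srrm2+/- replicate 1.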
